A study of Mus musculus with 8 samples.

Results

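The D cyclins, their kinase partners and the inhibitors of those kinases were examined in AML12 cells that stably express Zfp125, with AML12 cells that carry the empty vector (EV) as controls. The 10 genes were Ccnd1, Ccnd2, Ccnd3, Cdk4, Cdk6, Cdkn1a, Cdkn1b, Cdkn2a, Cdkn2b and Cdkn2c. Every transcript cluster (an array feature that sums the probes of a transcript) whose platform annotation gives 1 of these symbols was taken, which gave 10 of the 41345 clusters of the table. Each gene had 1 cluster, and no cluster carried a further symbol, so the 10 clusters were also 10 of the 22180 genes tested.

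The study measured total RNA of 4 Zfp125 samples and 4 EV samples on Affymetrix MouseGene 2.0 ST arrays and asked which genes differ between them. Both populations went through G418 selection and were kept in control medium. AML12 is an immortal hepatocyte line from the liver of mice that carry a transgene for human transforming growth factor alpha, a ligand of the epidermal growth factor receptor, and this transgene is therefore shared by both groups. The sources used here do not say whether a population is 1 clone or whether the 4 samples of a group were separate cultures, so a p-value here reflects the variation among these samples alone, and that variation may be technical.

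D-type cyclins are made when growth factors act on a resting cell. They bind and activate the kinases Cdk4 and Cdk6, which phosphorylate the retinoblastoma protein and so release E2F transcription factors that switch on genes of DNA replication. The Ink4 inhibitors (Cdkn2a, Cdkn2b and Cdkn2c) bind Cdk4 and Cdk6 directly, while the Cip/Kip inhibitors (Cdkn1a and Cdkn1b) bind cyclin-kinase complexes, block Cdk2 and also help cyclin D to assemble with its kinase. In liver, cyclin D1 is the D cyclin best known for driving hepatocytes out of rest after partial hepatectomy, and Cdkn1a restrains their proliferation after injury.

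Cdkn1a, the p21 inhibitor and a classical target of p53, and Ccnd1, cyclin D1, were lower in Zfp125 cells, and 0 of the 10 genes were higher by the same test. All values are on the log2 scale, a change is Zfp125 minus EV, errors of means are SDs with n = 4 arrays in each group, and errors of changes are standard errors from limma's moderated test. A gene was called changed at a Benjamini-Hochberg adjusted p under 0.05 over the 22180 genes. By this rule 2 of the 10 genes were called, both lower, where 1.08% of all genes were called, 0.636% lower and 0.446% higher. At an unadjusted p under 0.05 there were 4 of the 10, all lower (Cdkn1a, Ccnd1, Cdkn2b and Ccnd2), where 10.9% of all genes had such a p. The median change over the 10 genes was -0.08, and it was -0.003 over all genes.

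Across the whole table the arrays were alike, with medians of 4.32 to 4.37 and correlations of 0.977 to 0.984 between any 2 arrays, and 0 pairs of arrays held identical values. Zfp125 is not analysed here, so the expressed gene could not be checked against the labels. The hepatocyte label was checked against markers. Albumin mRNA (Alb) was bright, with means of 12.48 in Zfp125 cells and 12.96 in EV cells. Of 10 measured hepatocyte markers 3 were called lower (Alb, Ahsg and Serpina1c) and 0 higher, and 5 had an unadjusted p under 0.05, all lower (also Hnf4a and Cps1). The calls of Alb and Serpina1c were lost in 4 and 5 of the 8 fits that left out 1 array, and that of Ahsg in 0. All 3 were lost without variance moderation (adjusted p = 0.0564 for Alb, 0.164 for Ahsg and 0.172 for Serpina1c) and with all clusters tested together (0.0794, 0.0772 and 0.12). The changes of the 5 lower markers were -1.33 ± 0.20 for Ahsg, -0.84 ± 0.20 for Cps1 and -0.67 ± 0.12 for Serpina1c. Those of Alb and Hnf4a were -0.48 ± 0.09 and -0.38 ± 0.09. Hnf4a and Cps1 did not pass the test (adjusted p = 0.0562 and 0.0656). The rest of the hepatocyte list moved less. The changes were 0.08 ± 0.10 for Ttr, 0.06 ± 0.09 for Krt8 and -0.01 ± 0.08 for Krt18. They were -0.07 ± 0.09 for Apob and -0.11 ± 0.11 for Serpina1a. Whether the lower values of Alb, Ahsg, Serpina1c, Hnf4a and Cps1 have a part in the changes of the 10 genes was not tested. The mean over 7 endothelial markers was 4.11 to 4.26 on the Zfp125 arrays and 4.12 to 4.29 on the EV arrays, where the median of all clusters was 4.34. Over 8 leukocyte markers it was 3.98 to 4.12 in Zfp125 cells and 3.92 to 4.15 in EV cells, and over 10 fibroblast or stellate cell markers 4.87 to 4.98 in Zfp125 cells and 4.88 to 4.94 in EV cells. Within the fibroblast or stellate cell list Vim was bright, with means of 10.64 in Zfp125 cells and 10.67 in EV cells. Of the 5 measured bile duct markers, Sox9 and Krt19 were bright, with means of 10.04 and 8.01 in Zfp125 cells and 9.75 and 8.15 in EV cells, while Epcam was dim (2.76 in Zfp125 cells and 2.73 in EV cells). By limma, 0 of the 30 measured markers of bile duct, fibroblast, leukocyte and endothelial cells were called, and 2 had an unadjusted p under 0.05 (Sox9 and Des, both higher).

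Ccnd1 encodes cyclin D1. Its mRNA had values of 8.78, 8.83, 8.96 and 9.21 on the 4 Zfp125 arrays and of 9.79, 9.68, 9.61 and 9.30 on the 4 EV arrays. The groups did not overlap, but the highest Zfp125 array, replicate 4, lay just under the lowest EV array, also replicate 4. The means were 8.95 ± 0.19 in Zfp125 cells and 9.60 ± 0.21 in EV cells. The change was -0.65 ± 0.12, which is 0.638 times the EV level (adjusted p = 0.0256). Its 95% interval ran from -0.92 to -0.38. In RNA of whole cultures, fewer cells that express a gene and less of its RNA in each cell cannot be told apart. The call held without Zfp125 replicate 4 (adjusted p = 0.0169) and without EV replicate 4 (adjusted p = 0.0132). It ended when any 1 of the other 6 arrays was left out (Zfp125 replicates 1, 2 and 3, EV replicates 1, 2 and 3), with adjusted p-values of 0.0665 to 0.0959. It also ended without variance moderation (adjusted p = 0.187) and when all 41345 clusters were tested together (adjusted p = 0.13), a fit in which 0.148% of clusters were called. The change itself lay between -0.75 and -0.58 over the 8 omissions.

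Ccnd2, cyclin D2, pairs with the same kinases. It had values of 7.76, 7.79, 7.76 and 8.02 in Zfp125 cells and of 8.38, 8.13, 8.05 and 7.95 in EV cells. Zfp125 replicate 4 stood above the other 3 Zfp125 arrays and within the EV range. The change was -0.29 ± 0.11 and did not pass the test (adjusted p = 0.312), with a 95% interval from -0.53 to -0.06. Ccnd3, cyclin D3, had values of 7.11, 6.88, 7.02 and 6.86 in Zfp125 cells and of 6.86, 6.80, 6.81 and 6.92 in EV cells. Its groups overlapped, and the change of 0.12 ± 0.09 did not pass the test (adjusted p = 0.705; 95% interval -0.08 to 0.31).

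**Figure D1:**
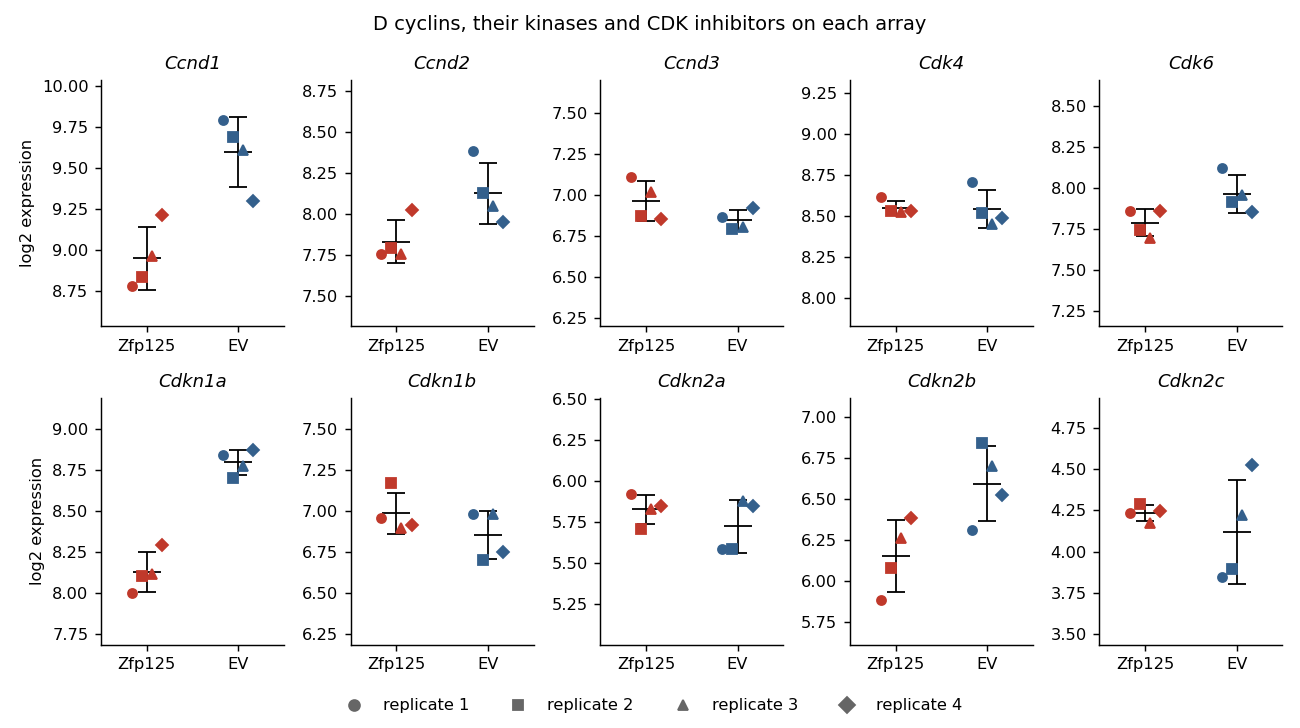
Log2 expression (vertical axis, a span of 1.5 in every panel) of each of the 10 genes on the 4 Zfp125 arrays (red, left) and the 4 EV arrays (blue, right); marker shapes give the replicate number and the black bars the mean and SD. In Ccnd1 and Cdkn1a all Zfp125 points lie below all EV points, and in the other 8 genes the groups overlap.

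That Ccnd1 passed the test and its relatives did not says nothing by itself on whether they differed, so the difference between related genes was taken on each array and compared between groups. A two-sided exact permutation test over the 70 assignments of 4 of 8 arrays was used, which cannot give a p below 0.0286. Ccnd1 minus Ccnd2 was 1.02, 1.04, 1.21 and 1.19 in Zfp125 cells and 1.41, 1.56, 1.55 and 1.35 in EV cells. The groups did not overlap, and cyclin D1 mRNA lay lower relative to cyclin D2 in Zfp125 cells by -0.35. Ccnd1 minus Ccnd3 differed by -0.76, with a mean of 1.98 ± 0.28 in Zfp125 cells and of 2.75 ± 0.25 in EV cells. For this pair the groups nearly met at replicate 4, with 2.36 in Zfp125 cells and 2.37 in EV cells. Each of these comparisons reached the smallest exact p, 0.0286. All 5 pairs compared had this p, and the adjustment over them leaves equal p-values as they are. It cannot correct for the choice of the 5 pairs, which was made with earlier results of these data known. With 1 array left out the groups remain apart by construction, and the exact p of such an unequal split, 0.0286 or 0.0571 here, says nothing more about their separation, so the sizes are given. The Ccnd1 and Ccnd2 difference lay between -0.39 and -0.32 over the 8 omissions, and that of Ccnd1 and Ccnd3 between -0.89 and -0.66.

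Cdk4, the kinase that D cyclins activate in most tissues, had close means in both groups, 8.55 ± 0.04 in Zfp125 cells and 8.54 ± 0.12 in EV cells. It had values of 8.61, 8.53, 8.52 and 8.53 in Zfp125 cells and of 8.71, 8.52, 8.45 and 8.49 in EV cells. The change was 0.01 ± 0.09 (adjusted p = 0.99), with a 95% interval of -0.18 to 0.20. Cdk6, the closest relative of Cdk4, had values of 7.86, 7.74, 7.70 and 7.86 in Zfp125 cells and of 8.12, 7.92, 7.96 and 7.85 in EV cells. The groups overlapped only through EV replicate 4, which lay just below the 2 highest Zfp125 arrays. Its change of -0.17 ± 0.09 did not pass the test (adjusted p = 0.53; 95% interval -0.37 to 0.03). On the same arrays, Cdk4 minus Cdk6 was 0.76 ± 0.07 in Zfp125 cells and 0.58 ± 0.06 in EV cells. This is a difference of 0.18 without overlap (exact p = 0.0286, the smallest possible, and the same after adjustment). The groups nearly met at replicate 4, with 0.67 in Zfp125 cells and 0.64 in EV cells. Over the 8 omissions of 1 array the difference lay between 0.15 and 0.21.

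Cdkn1a encodes p21. The promoter windows of Cdkn1a and of its relative Cdkn1b, which encodes p27, are shown because these inhibitors of the same family had estimated changes of opposite sign. That of Cdkn1b did not pass the test, so its direction is not established. Each window runs from 250 bases before to 50 after a start that RefSeq annotates in build GRCm38.p6. Capitals mark the motifs searched on both strands: the GC box GGGCGG, the CCAAT box CCAAT, the E-box CACGTG, the cyclic AMP response element TGACGTCA, the AP-1 site TGANTCA, the TATA box TATAAA and the p53 response element of 20 bases with at most 1 mismatch to its consensus.
Cdkn1a, upstream start, chr17:29090729-29091028, plus strand: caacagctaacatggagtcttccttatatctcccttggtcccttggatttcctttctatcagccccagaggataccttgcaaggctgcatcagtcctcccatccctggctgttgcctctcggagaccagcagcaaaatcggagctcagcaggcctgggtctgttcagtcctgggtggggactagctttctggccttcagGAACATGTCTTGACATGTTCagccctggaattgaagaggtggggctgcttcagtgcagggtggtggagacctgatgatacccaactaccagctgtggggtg
Cdkn1a, downstream start, chr17:29093519-29093818, plus strand: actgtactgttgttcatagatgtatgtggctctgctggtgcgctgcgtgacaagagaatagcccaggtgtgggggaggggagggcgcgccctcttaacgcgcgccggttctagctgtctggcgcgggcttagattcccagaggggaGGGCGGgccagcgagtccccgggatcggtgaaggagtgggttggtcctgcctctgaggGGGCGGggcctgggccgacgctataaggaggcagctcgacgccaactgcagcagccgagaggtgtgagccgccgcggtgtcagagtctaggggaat
Cdkn1b, chr6:134920151-134920450, plus strand: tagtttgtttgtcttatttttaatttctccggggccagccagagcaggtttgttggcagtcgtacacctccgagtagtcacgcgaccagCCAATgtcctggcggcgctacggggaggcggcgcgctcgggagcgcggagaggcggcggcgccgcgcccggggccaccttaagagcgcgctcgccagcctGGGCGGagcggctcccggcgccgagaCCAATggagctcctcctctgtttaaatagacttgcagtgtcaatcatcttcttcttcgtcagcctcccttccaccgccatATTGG

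The upstream window of Cdkn1a holds 1 match to the p53 element, with 1 mismatch, whose first base lies 51 bases before the start. Of the 32851 windows of the table, 0.0883% hold such a match. The downstream window, whose start lies 2790 bases further on, holds 2 GC boxes, and the Cdkn1b window holds 1 GC box and 3 CCAAT boxes. Of all windows 35.7% hold a GC box, 37.4% a CCAAT box, 7.15% an E-box, 1.79% a cyclic AMP response element, 7.81% an AP-1 site and 13.6% a TATA box, and none of the last 4 is in these 3 windows. Of the 10 genes 8 had windows in the table, 12 in all, and 9 of the 12 hold a GC box. Ccnd1 and Ccnd2 are not among the 8. The Cdk4 window holds 4 E-boxes, the motif bound by Myc, and the Cdkn2b window 1 cyclic AMP response element. These matches describe the letters only, and the arrays do not measure binding.

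Cdkn1a was lower in Zfp125 cells on every array. Its values were 8.004, 8.10, 8.12 and 8.30 in Zfp125 cells and 8.84, 8.70, 8.77 and 8.87 in EV cells. The highest Zfp125 array, replicate 4, stayed well under the lowest EV array. The means were 8.13 ± 0.12 in Zfp125 cells and 8.80 ± 0.08 in EV cells, a change of -0.67 ± 0.09 or 0.63 times the EV level (adjusted p = 0.00297; 95% interval -0.87 to -0.47). By p it ranked 46th of the 22180 genes. Over the 22180 genes the call held in each omission of 1 array, with adjusted p-values of 0.00321 to 0.0163. With all clusters tested together it was also called (adjusted p = 0.0364), but in that fit the call was lost in 7 of the 8 omissions of 1 array and held only without Zfp125 replicate 4. It ended without variance moderation (adjusted p = 0.0564).

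Cdkn1b had values of 6.96, 7.17, 6.89 and 6.91 in Zfp125 cells and of 6.98, 6.70, 6.98 and 6.75 in EV cells. The groups overlapped, with Zfp125 replicate 2 above all other arrays. Its change of 0.13 ± 0.10 did not pass the test (adjusted p = 0.704; 95% interval -0.09 to 0.35). Cdkn1a minus Cdkn1b was 1.05, 0.94, 1.23 and 1.38 in Zfp125 cells and 1.87, 2.00, 1.79 and 2.13 in EV cells. The groups were well apart, and the difference of -0.80 was the largest of the 5 pairs (exact p = 0.0286, the smallest possible, and the same after adjustment). Over the omissions of 1 array it lay between -0.88 and -0.73.

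**Figure D2:**
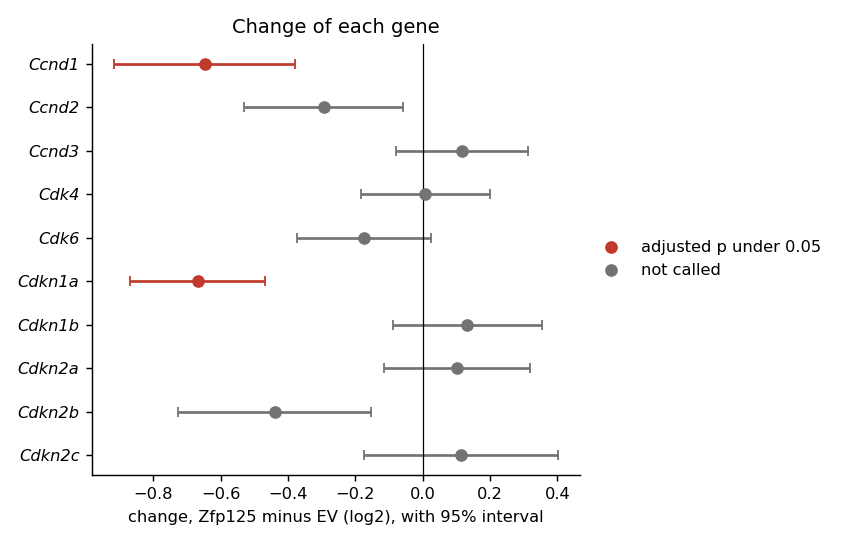
Change of each gene (horizontal axis, Zfp125 minus EV, log2) with its 95% interval from limma; red points are the genes called at an adjusted p under 0.05. Cdkn1a at -0.67 and Ccnd1 at -0.65 are called, the intervals of Cdkn2b and Ccnd2 also lie below 0 without a call, and the interval of Cdk4 is centred near 0.

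Cdkn2a and Cdkn2b are neighbours in the genome. Cdkn2a encodes p16 and, from another first exon, p19Arf, which stabilises p53. Its 1 cluster does not separate these products here. Cdkn2a had values of 5.92, 5.71, 5.83 and 5.85 in Zfp125 cells and of 5.59, 5.58, 5.88 and 5.85 in EV cells. The groups overlapped, and the change of 0.10 ± 0.10 did not pass the test (adjusted p = 0.782; 95% interval -0.12 to 0.32).

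Cdkn2b encodes p15, the Ink4 inhibitor that transforming growth factor beta induces. It had values of 5.88, 6.08, 6.26 and 6.39 in Zfp125 cells and of 6.31, 6.84, 6.70 and 6.52 in EV cells. Of the Zfp125 arrays only replicate 4 reached above the lowest EV array, replicate 1. The change was -0.44 ± 0.13 and did not pass the test (adjusted p = 0.182), with a 95% interval of -0.73 to -0.15. Cdkn2a minus Cdkn2b had a mean of -0.33 ± 0.25 in Zfp125 cells and of -0.87 ± 0.27 in EV cells. This is a difference of 0.54 without overlap (exact p = 0.0286, the smallest possible, and the same after adjustment). It lay between 0.41 and 0.61 over the omissions of 1 array, lowest without EV replicate 2 (0.41) and Zfp125 replicate 1 (0.42).

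Cdkn2c, the p18 inhibitor, had a dim cluster. Its values were 4.24, 4.29, 4.17 and 4.24 in Zfp125 cells and 3.84, 3.90, 4.22 and 4.53 in EV cells. The Zfp125 arrays spanned 0.121 and the EV arrays 0.683, and the means of 4.24 in Zfp125 cells and 4.12 in EV cells lay below the median of all clusters, 4.34. No detection call was available, so a level near background cannot be told apart from a low level. The change of 0.11 ± 0.13 did not pass the test (adjusted p = 0.827; 95% interval -0.17 to 0.40).

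**Figure D3:**
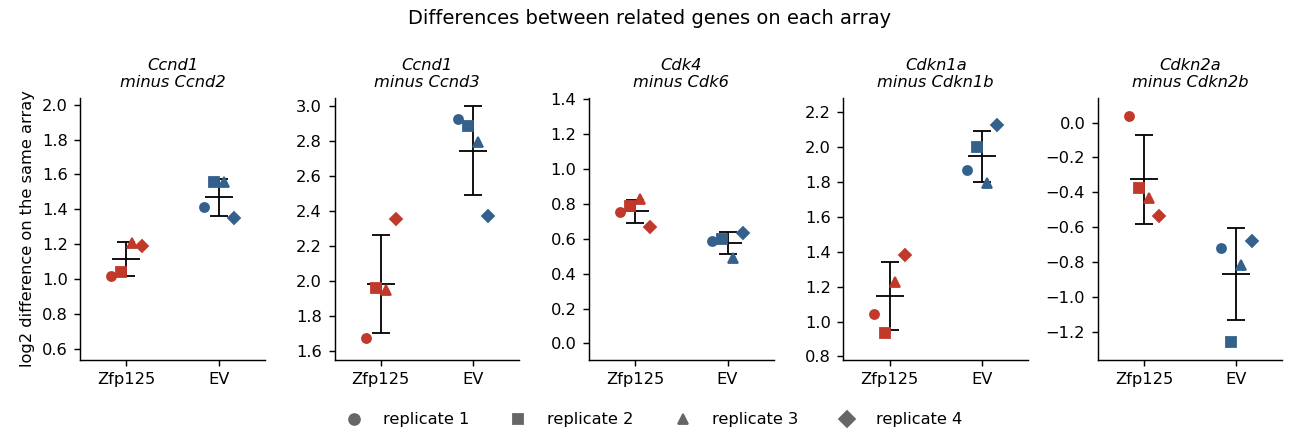
Log2 difference between related genes on the same array (vertical axis, a span of 1.5 in every panel) for 5 pairs, on the 4 Zfp125 arrays (red, left) and the 4 EV arrays (blue, right), with the mean and SD in black and marker shapes for the replicate number. The groups do not overlap in any of the 5 panels, and the gap is smallest for Ccnd1 minus Ccnd3, where replicate 4 of each group lies close together at 2.36 in Zfp125 cells and 2.37 in EV cells.

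The 5 pairs were chosen for their kinship, with earlier results of these data known. Over all 45 pairs that the 10 genes can form, the difference on the same array did not overlap between groups in 16, or 35.6%. The 45 include the 5 pairs themselves and the pairs formed with Cdkn1a or Ccnd1. No share over pairs of all genes was computed, so how unusual the 5 are is not known. Single genes whose groups did not overlap made up 7.29% of the 22180 genes (3.58% lower and 3.71% higher in Zfp125 cells) and 2 of the 10, both lower.

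Zfp125 replicate 4 was the highest of the Zfp125 arrays in all 4 genes with an unadjusted p under 0.05 (Ccnd1, Ccnd2, Cdkn1a and Cdkn2b). It was also the highest Zfp125 array in 67 of the 141 genes called lower over the whole table, against 21 to 31 for the other 3 Zfp125 arrays. Leaving it out moved the change of Ccnd1 to -0.74, that of Ccnd2 to -0.36, that of Cdkn1a to -0.72 and that of Cdkn2b to -0.52. Its part in these results was not tested beyond that omission. EV replicate 4 held the lowest EV value of Ccnd1, Ccnd2 and Cdk6 but the highest of Cdkn1a, and over the 141 genes it was the highest EV array in 66 and the lowest in 17.

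The genes around this step of the cell cycle were followed in lists. Of 3 other CDK inhibitors (Cdkn1c, Cdkn2d and Cdkn3) 0 were called by limma and 0 had an unadjusted p under 0.05. Cdkn3, a phosphatase that acts on kinases of the cell cycle, had a change of -0.17 ± 0.13 and Cdkn2d, the p19 Ink4 inhibitor, of 0.08 ± 0.10. Of 13 pocket proteins and E2F factors, which carry the signal from Cdk4 and Cdk6 to transcription, 0 were called and 2 had an unadjusted p under 0.05. These were Tfdp2, a DNA-binding partner of E2F, with a change of 0.27 ± 0.10 (adjusted p = 0.291), and the pocket protein Rbl2 with 0.25 ± 0.10 (adjusted p = 0.373). The median change of that list was 0.001.

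Downstream, 0 of 24 measured E2F targets of DNA replication were called by limma, and 3 had an unadjusted p under 0.05, all lower. The helicase subunits Mcm3 and Mcm4 had the smallest p, with changes of -0.39 ± 0.12 (adjusted p = 0.178) and -0.36 ± 0.11 (adjusted p = 0.201). The list had a median change of -0.05, with 18 genes lower and 6 higher. Of 12 other cyclins and CDKs 0 were called and 3 had an unadjusted p under 0.05. Cyclin B2, Ccnb2, had a change of 0.37 ± 0.09 (adjusted p = 0.0782), and Wee1, the kinase that inhibits Cdk1, of -0.29 ± 0.12 (adjusted p = 0.363). The median of these 12 was 0.10.

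Upstream, 1 of 22 measured genes of mitogen signalling and cyclin D transcription was called by limma. An unadjusted p under 0.05 was found for 5, of which 2 were lower and 3 higher. Ets1, a transcription factor that MAP kinases activate, had means of 6.80 ± 0.08 in Zfp125 cells and 6.21 ± 0.19 in EV cells, and it rose by 0.60 ± 0.11 (adjusted p = 0.0149). The call ended without Zfp125 replicate 1 (adjusted p = 0.06) or replicate 2 (adjusted p = 0.0526). Its relative Ets2 had a change of -0.38 ± 0.09 (adjusted p = 0.0818), the receptor Met of 0.38 ± 0.10 (adjusted p = 0.107) and the immediate early factor Egr1 of -0.38 ± 0.11 (adjusted p = 0.145). Tcf7l2 had a change of 0.41 ± 0.13 (adjusted p = 0.231). Ets2, Met, Egr1 and Tcf7l2 did not pass the test. The median change of the list was 0.01.

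Among 13 measured genes of cyclin D turnover 1 was called. Cryab, the small heat shock protein that assists the ubiquitin ligase of Fbxo4 on phosphorylated cyclin D1, had means of 7.31 ± 0.08 in Zfp125 cells and 6.85 ± 0.15 in EV cells. It rose by 0.47 ± 0.10 (adjusted p = 0.0361), and its call was lost in 6 of the 8 fits that left out 1 array, with an adjusted p of at most 0.116. The calls of Ets1 (adjusted p = 0.121) and Cryab (adjusted p = 0.127) also ended without variance moderation. These are mRNA levels, and the stability of cyclin D1 protein was not measured.

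Of 19 genes that set Cip/Kip transcription and turnover 0 were called by limma, and 3 had an unadjusted p under 0.05, all lower. Cebpa, a hepatocyte factor whose protein binds p21, had a change of -0.39 ± 0.12 (adjusted p = 0.176) and Foxo1, an activator of Cip/Kip genes, of -0.27 ± 0.10 (adjusted p = 0.274). Of 20 regulators of the Ink4 locus 0 were called and 4 had an unadjusted p under 0.05, all higher. The histone demethylase Kdm6b had a change of 0.27 ± 0.09 (adjusted p = 0.233) and the Polycomb protein Bmi1 of 0.33 ± 0.12 (adjusted p = 0.29).

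Of 22 measured p53 targets other than Cdkn1a 1 fell. Ddit4, an inhibitor of mTOR signalling that p53, hypoxia and glucocorticoids induce, had a change of -0.48 ± 0.10 (adjusted p = 0.0444), with means of 7.10 ± 0.16 in Zfp125 cells and 7.59 ± 0.12 in EV cells. Its call was lost in 7 of the 8 fits that left out 1 array, with an adjusted p of at most 0.126, and without variance moderation (adjusted p = 0.166). The median change of the 22 genes was -0.13, with 15 genes lower and 7 higher. An unadjusted p under 0.05 was found for 5, all lower (Ddit4, Btg2, Pmaip1, Trp53inp1 and Eda2r). Pmaip1 had a change of -0.50 ± 0.16 (adjusted p = 0.225) and Btg2 of -0.45 ± 0.11 (adjusted p = 0.0935). Mdm2, the p53 ubiquitin ligase and a p53 target itself, was not called (change -0.12 ± 0.09, adjusted p = 0.675). Trp53, the gene of p53, is not analysed here.

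**Figure D4:**
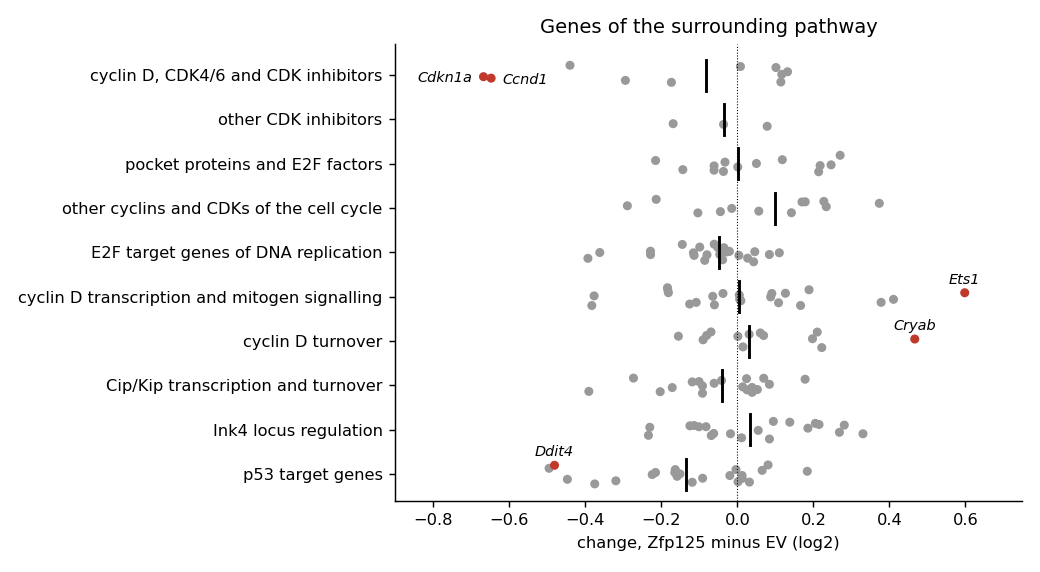
Change of each measured gene (horizontal axis, Zfp125 minus EV, log2) in the 10 genes and in 9 lists of the surrounding pathway; red points are called at an adjusted p under 0.05 and are named, black bars are list medians, and points are spread vertically only for display. Apart from Cdkn1a and Ccnd1, the called genes are Ets1 and Cryab on the higher side and Ddit4 on the lower side.

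Over the 8 arrays, the genes whose log2 values followed Cdkn1a most closely were Fga (Pearson r = 0.995), Hsd17b13 (r = 0.991) and H2-Q10 (r = 0.991), which encode a fibrinogen chain, a lipid droplet protein of hepatocytes and a class I histocompatibility protein. Those closest to Ccnd1 were Anxa8 (r = 0.984), Olfr68 (r = 0.977) and Depdc7 (r = 0.977). These correlations describe 8 arrays in 2 groups and include the difference between the groups. Fga, Hsd17b13, H2-Q10, Anxa8 and Depdc7 were also called lower, and Olfr68 was dim, with means of 1.93 in Zfp125 cells and 2.22 in EV cells.

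**Figure D5:**
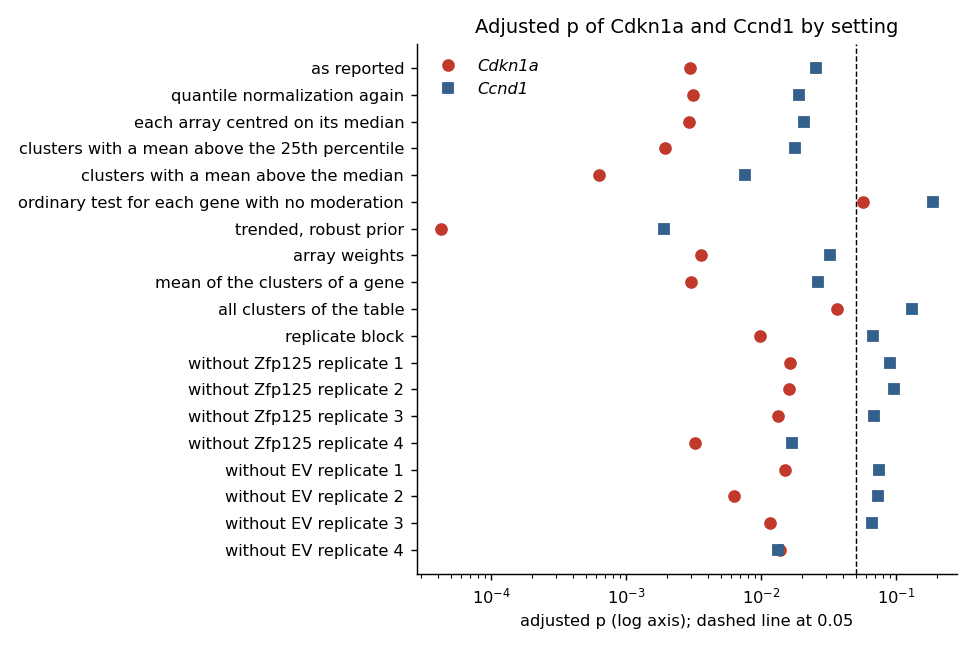
Adjusted p (horizontal log axis, dashed line at 0.05) of Cdkn1a (red circles) and Ccnd1 (blue squares) under the reported settings and 18 alternatives. Cdkn1a crosses the line only without variance moderation, while Ccnd1 lies above it in 9 of the 18 alternatives.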

How the data were processed

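RNA of 4 Zfp125 and 4 EV samples was measured, and the authors deposited a table of log2 expression values with 41345 transcript clusters and 8 arrays, whose scale was inferred from its range. Affymetrix Expression Console and Transcriptome Analysis Console are named in the submitters' processing notes, without versions; how background was corrected and arrays were normalized is not given in the sources used here. The number of arrays limits the precision.

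Clusters were named through the platform annotation (23521 with 1 symbol, 1814 with several, 16010 unnamed here), with current symbols from the GRCm38.p6 RefSeq table, matched by Entrez identifier, for 23328 clusters. The brightest cluster of each gene with 1 symbol was used, which gave 22180 genes. limma 3.58.1 in R 4.3.3 (lmFit, eBayes) was fitted to all of them without a filter or new normalization, and p-values, all two-sided, were adjusted by the Benjamini-Hochberg method. The test was run on simulated data with changed genes among 22180 in the Zfp125 against EV comparison. It recovered 46.3% of changes of 0.5, 91% of changes of 1 and 100% of changes of 2. Of its 165 calls 7 were false. These rates hold for the simulated spread, which may differ from that of the arrays. Related genes were compared with exact permutation tests in Python 3.11.15, and plots used matplotlib 3.10.9.

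The genes, lists, pairs and motifs were chosen with earlier results of these data known. The text names all 10 genes, the called genes of each list or, where there were none, up to 2 with the smallest p, and the 3 genes that follow each called gene most closely. Ets2, Met, Egr1, Tcf7l2, Mdm2, Sox9, Krt19, Epcam, Des, Hnf4a and Cps1 were named after their values were seen. So were Vim, Ttr, Krt8, Krt18, Apob, Serpina1a, Pmaip1, Btg2, Eda2r and Trp53inp1. List genes without a cluster of 1 symbol are not analysed here. Same-numbered arrays of the groups did not deviate together (correlations of -0.053 to 0.037), so the numbers were not treated as pairs.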

Additional observations from a re-analysis of the deposited data

Results flagged for a closer look

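In groups of 4 arrays, an array whose gap to its nearest neighbour takes up more of the group's range than Dixon's 95% critical value allows was singled out, which chance does in about 1 of 20 groups. Of the 20 groups of the 10 genes, 2 met this. Zfp125 replicate 4 was the highest of the Zfp125 arrays in Ccnd2, at 8.025, with a ratio of 0.867. Zfp125 replicate 1 was the highest of the Zfp125 arrays in Cdk4, at 8.612, with a ratio of 0.934, in a group whose whole range was 0.0873. Neither gene was called changed.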

How the results depend on the processing

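Of 179 values of the 10 genes under 18 alternatives, 165 kept their direction and their side of the threshold, 10 calls ended and 4 changed sign. Filters, moderation settings, means of clusters, all clusters and the replicate block leave the change of a gene as it is. Only a new normalization, array weights or an omission could alter its direction. The 165 also include values of the 8 genes that were not called, which stayed so. The calls that ended were 9 of Ccnd1 and 1 of Cdkn1a. The sign changes were all of Cdk4, whose change was near 0: it was -0.013 without Zfp125 replicate 1 and -0.0002, -0.022 and -0.009 without EV replicates 2, 3 and 4, and over all 8 omissions it ran from -0.022 to 0.064. Cdkn2c gave no value among clusters above the median.

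The 2 called genes became 0 without variance moderation, 1 with all clusters tested together and 1 with the replicate number as a block, where Ccnd1 had an adjusted p of 0.0671. The block also ended the calls of Cryab (adjusted p = 0.0653) and Ddit4 (0.0657), and testing all clusters ended those of Ets1 (0.0958), Cryab (0.13) and Ddit4 (0.159). Leaving out 1 array gave 1 to 2. Within the fit over all clusters the 1 call (Cdkn1a) became 0 without moderation and 0 with the replicate block, and leaving out 1 array gave 0 to 1, with 0 in 7 of 8 cases. The count of all changed genes was 240. It became 405 among clusters above the median, 26 without moderation, 498 with a trended, robust prior, 61 over all clusters and 152 with the replicate block, and 109 to 187 when 1 array was left out. The replicate numbers share only a number: 0 of 4 Zfp125 arrays and 1 of 4 EV arrays correlated best with the array of the same number. The 5 differences between related genes passed with quantile normalization again. Median centring cancels in a difference on the same array, and each gene had 1 cluster. Centring and means of clusters therefore could not change these differences. When 1 array was left out 0 to 5 passed, which follows from the exact p of unequal groups and the adjustment, since the groups stay apart. The cause of these shifts was not tested, beyond the smaller number of arrays in the omissions and the larger number of features over all clusters.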
